A study of Danio rerio with 8 samples.

Results

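The genes described here are 10 zebrafish genes of myelin-forming and astroglial cells, chosen by name and followed across the deposited count table of 32434 genes. A row was found for 8 of them by the symbol paired with its Ensembl ID. They comprise 5 genes of myelin and the oligodendrocyte lineage (*mpz*, *mbpa*, *mbpb*, *plp1b* and *olig2*) and 3 genes of astroglia and Müller glia (*gfap*, *slc1a3* and *rlbp1a*). No row carried the symbols *plp1a* or *glula*, and both are not analysed here. The symbol *slc1a3* belongs to 2 IDs, of which 1 has a row, and the symbol table does not say which of the zebrafish copies that row is.

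Polyadenylated RNA came from whole larvae of *Danio rerio* at 5 days post fertilization. One group of 4 libraries came from *seph* mutants and the other 4 libraries were wild type. *seph*, now *selenoh*, encodes selenoprotein H, a nuclear protein that contains selenium. The labels name no allele, strain or clutch and no number of larvae per library. In a whole larva, fewer cells of a type and less RNA per cell cannot be told apart. Libraries held 51246749 to 56409917 counts. *selenoh* had 1, 20, 0 and 0 counts in mutant replicates 1 to 4 and 737 to 1225 counts in wild type, so each library matched its label. An unnamed gene had the same counts as *selenoh*, so the reads of those 2 rows cannot be separated. Both replicate 3 libraries stood apart from the rest. The second principal component (22.4% of the variance) gave -40.3 for the mutant one, -52 for the wild type one and 12.8 to 16.9 for the other 6 libraries, so results that rest on them are also given without them.

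Myelin is the layered membrane that oligodendrocytes wrap around axons in the brain and spinal cord and Schwann cells wrap around axons of peripheral nerves. Astroglia, which in fish keep a radial shape, clear glutamate and potassium from around neurons. Müller glia do this in the retina, where they and the retinal pigment epithelium also bind and recycle retinoids for photoreceptors.

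Transcripts of 4 of the 5 myelin and oligodendrocyte genes were lower in the mutant, at 54.5% to 61.8% of wild type, and *mbpb* was not called. The 3 astroglial and Müller glia genes went different ways. *slc1a3* rose 2.69-fold, *rlbp1a* fell to 44.0% of wild type and *gfap* was not called. A gene is called when its adjusted p is under 0.05 in the quasi-likelihood test of edgeR with Benjamini-Hochberg adjustment over all 27050 tested genes. By that rule 8.45% of all tested genes were lower and 8.65% higher (17.1% either way), against 4 lower and 0 higher of the 5 myelin genes and 1 lower and 1 higher of the 3 glial genes. The members were chosen with earlier results of these data known, so these counts are no test of the set. With library size as the only scaling, 2713 of all genes were higher and 1647 lower, against 2339 and 2287 here. The median log2 fold change was -0.75 for the myelin genes, 0.22 for the glial genes and 0.01 for all tested genes. All 8 passed the filter on low counts, and none had counts identical to those of another gene. The 7 with a chromosome in the GRCz12tu gene table were all on chromosomes other than that of *selenoh*.

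**Figure D1:**
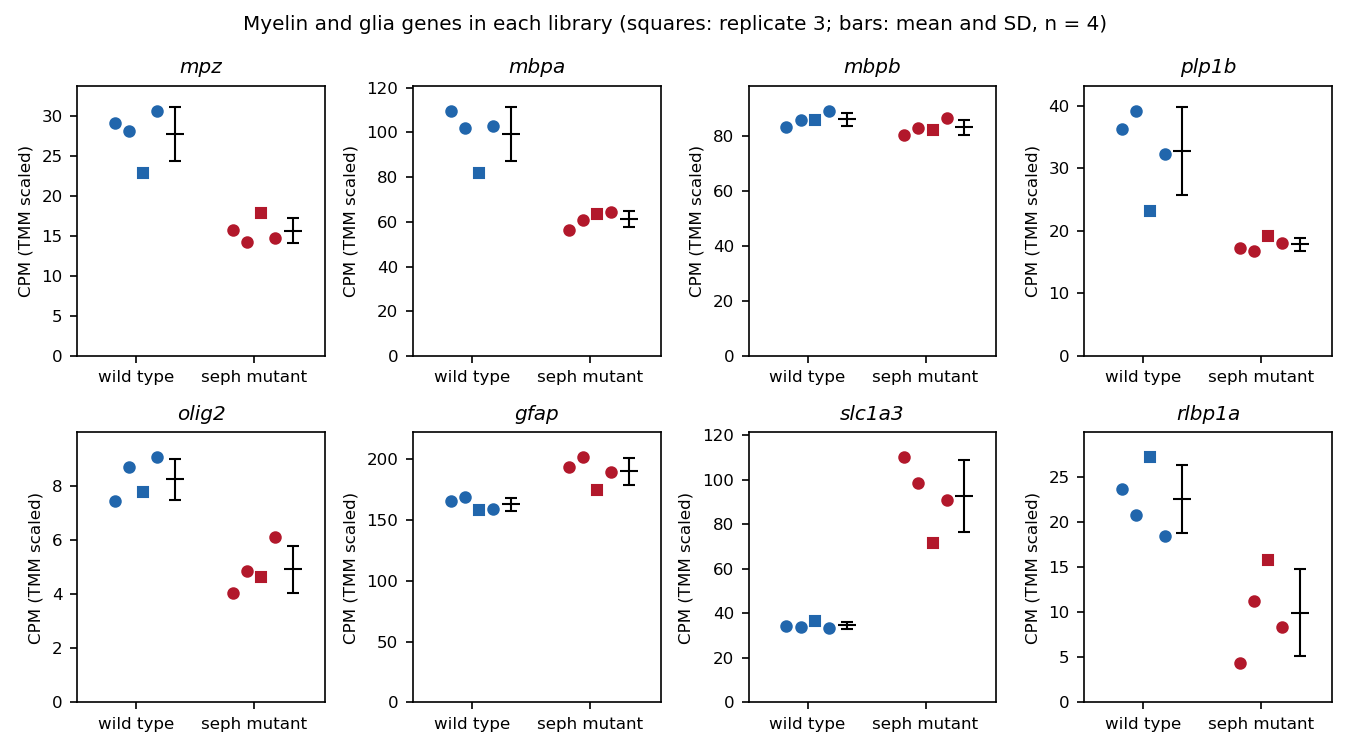
CPM (TMM scaled, axes from 0) of the 8 genes in each wild type (blue) and mutant (red) library, with replicate 3 as a square and the mean and SD at the right (n = 4 each). For *mpz*, *mbpa*, *plp1b* and *olig2* the 4 mutant libraries lie below the 4 wild type libraries, for *slc1a3* they lie above, and for *mbpb* they overlap.

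Levels are given as CPM, the share of a library's counts that a gene takes, after TMM scaling. *mpz* (ENSDARG00000038609) encodes myelin protein zero, an adhesion protein that holds adjacent myelin layers together and that in fish is made by oligodendrocytes as well as Schwann cells. Its level in wild type replicates 1 to 4 was 29.2, 28.1, 22.9 and 30.7 CPM, and in mutant replicates 1 to 4 it was 15.7, 14.3, 17.9 and 14.8 CPM. The groups did not overlap, the mutant being lower, with both replicate 3 libraries nearest to the other group. The means were 27.7 ± 3.37 CPM in wild type and 15.7 ± 1.61 CPM in the mutant (SD, n = 4 each). The log2 fold change was -0.82 ± 0.12 (SE, edgeR quasi-likelihood Benjamini-Hochberg adjusted p = 0.00238). Without both replicate 3 libraries it was -0.98. CPM values are not divided by transcript length, so levels are compared between groups and not between genes.

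*mbpa* (ENSDARG00000036186) and *mbpb* (ENSDARG00000089413) are the duplicated genes of myelin basic protein, which joins the cytoplasmic faces of the myelin membrane. The level of *mbpa* was 109.8, 102, 81.8 and 103 CPM in wild type replicates 1 to 4 and 56.5, 60.7, 63.6 and 64.4 CPM in the mutant replicates. The groups were apart, and wild type replicate 3 was the lowest of its group. The mean fell from 99.3 ± 12.1 to 61.3 ± 3.59 CPM (SD, n = 4 each), a log2 fold change of -0.70 ± 0.11 (SE, edgeR quasi-likelihood Benjamini-Hochberg adjusted p = 0.00352).

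The other copy did not show this difference. *mbpb* stood at 83.1, 85.7, 85.8 and 89.2 CPM in the wild type replicates and at 80.3, 83, 82.3 and 86.6 CPM in the mutant replicates, so the groups overlapped. The fold change was 0.966 with a 95% interval of 0.855 to 1.09 (adjusted p = 0.712 by edgeR), an interval that leaves out the 0.618 of *mbpa*. Its direction, slightly lower here, was slightly higher (log2 fold change 0.03) when scaled by library size only.

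A ratio of 2 genes inside a library does not depend on how libraries are scaled, and it sets the responses of the 2 copies side by side. The log2 ratio of *mbpa* to *mbpb* counts was 0.20 ± 0.20 in wild type and -0.44 ± 0.06 in the mutant (SD, n = 4 each), with no overlap between the groups. The difference of -0.64 had p = 0.0286 in a two-sided exact permutation test, which 4 against 4 libraries cannot go below (adjusted p = 0.0286 over 4 pairs). Given the levels of the 2 copies listed above, this ratio had to separate the groups, so the p-value is no separate evidence. Without mutant replicate 1 the difference was -0.62 with an exact permutation p = 0.0571. With both replicate 3 libraries left out it was -0.75, with an exact permutation p = 0.1, the smallest possible for 3 against 3.

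*plp1b* (ENSDARG00000011929) encodes a proteolipid protein, the kind of tetraspan protein that makes up much of central myelin in mammals. It reached 36.2, 39.2, 23.1 and 32.3 CPM in wild type replicates 1 to 4 and 17.2, 16.8, 19.2 and 18.1 CPM in the mutant replicates. The wild type libraries were spread widely, with replicate 3 lowest, while the mutant libraries were close together and all below them. The mean fell from 32.7 ± 6.97 to 17.8 ± 1.04 CPM (SD, n = 4 each), or by 0.88 ± 0.15 on the log2 scale (SE, edgeR quasi-likelihood Benjamini-Hochberg adjusted p = 0.00557). Without both replicate 3 libraries it fell by 1.05.

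*olig2* (ENSDARG00000040946) encodes a transcription factor needed to specify oligodendrocytes and also motor neurons. Wild type replicates 1 to 4 had 7.44, 8.68, 7.76 and 9.05 CPM and mutant replicates had 4.05, 4.83, 4.63 and 6.11 CPM. The groups did not overlap, and the replicate 3 libraries were within the range of their groups. The mean fell from 8.23 ± 0.758 to 4.9 ± 0.871 CPM (SD, n = 4 each), with a log2 fold change of -0.75 ± 0.15 (SE, edgeR quasi-likelihood Benjamini-Hochberg adjusted p = 0.00925). The LIM factor gene *isl1*, a marker of motor neurons and other neurons, fell by 0.90 ± 0.12 on the log2 scale. Of the 24 neuron markers that include *isl1*, 6 fell and 2 rose, with a median log2 change of -0.07. The part of motor neurons in the result for *olig2* was not tested.

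The calls of *mpz*, *mbpa*, *plp1b*, *olig2* and *slc1a3* were kept under every alternative tried, including each of the 8 fits that left out 1 library. The groups did not overlap for 4 of the 5 myelin genes, with the mutant below, as for 11.1% of all tested genes. They did not overlap for any of the 3 glial genes, 2 with the mutant above (11.0% of all tested genes) and 1 below.

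**Figure D2:**
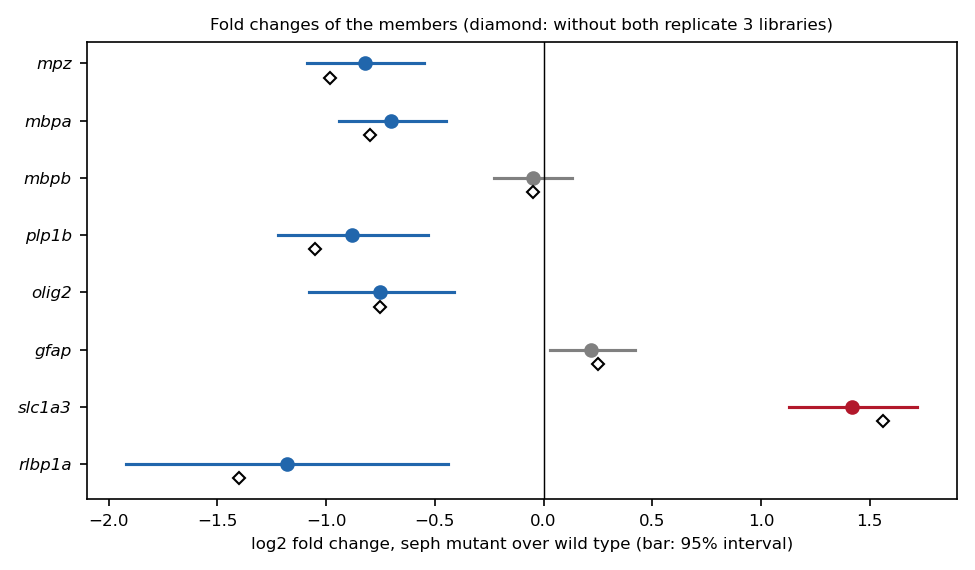
Log2 fold change of the mutant over wild type for the 8 genes with its 95% interval (horizontal axis, edgeR; blue called lower, red called higher, grey not called), and the same without both replicate 3 libraries (open diamonds). Without these libraries *mpz* moved from -0.82 to -0.98, *plp1b* from -0.88 to -1.05 and *slc1a3* from 1.42 to 1.56.

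*slc1a3* (ENSDARG00000043148) encodes a glial transporter that takes up glutamate released by neurons, known as GLAST or EAAT1 in mammals. It was at 34.3, 33.9, 36.7 and 33.5 CPM in wild type replicates 1 to 4 and at 110.2, 98.7, 71.7 and 90.9 CPM in the mutant replicates. The wild type libraries were nearly equal and all mutant libraries were above them, with mutant replicate 3 the lowest of its group. The mean rose from 34.6 ± 1.47 to 92.9 ± 16.2 CPM (SD, n = 4 each), a log2 fold change of 1.42 ± 0.13 (SE, edgeR quasi-likelihood Benjamini-Hochberg adjusted p = 0.000276).

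*gfap* (ENSDARG00000025301), the intermediate filament gene that marks radial astroglia and Müller glia, was at 166, 169, 158 and 159 CPM in wild type replicates 1 to 4 and at 194, 202, 175 and 190.0 CPM in the mutant replicates. All mutant libraries were above all wild type libraries, but by little. The fold change was 1.17 with a 95% interval of 1.02 to 1.34 and missed the threshold (adjusted p = 0.114 by edgeR). It passed without both replicate 3 libraries (log2 fold change 0.25, adjusted p = 0.0457), when scaled by library size only (0.0457), with the DESeq2 Wald test (0.0377) and with limma-voom (0.0319), and reached at most 0.267 over its alternatives.

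Set against *gfap* inside each library, *mpz* and *mbpa* moved in the opposite direction to *slc1a3*. The log2 ratio of *mpz* to *gfap* was -2.56 ± 0.17 in wild type and -3.60 ± 0.23 in the mutant, and that of *mbpa* to *gfap* was -0.72 ± 0.16 and -1.63 ± 0.15 (SD, n = 4 each). The ratio of *slc1a3* to *gfap* was -2.24 ± 0.09 in wild type and -1.05 ± 0.19 in the mutant (SD, n = 4 each). The differences of -1.04, -0.91 and 1.19 each had p = 0.0286 in the same exact permutation test, and adjusted p = 0.0286 over the 4 pairs. Thus *slc1a3* differed from the other astroglial gene by more than the spread between libraries. For *mpz* and *mbpa* all mutant libraries already lay below wild type, and for *gfap* all lay above. The ratios of *mpz* and *mbpa* to *gfap* therefore had to separate the groups, and their p-values are no separate evidence. Given the levels of *slc1a3* and *gfap* listed above, their ratio also had to separate the groups, and the same holds for its p-value.

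**Figure D3:**
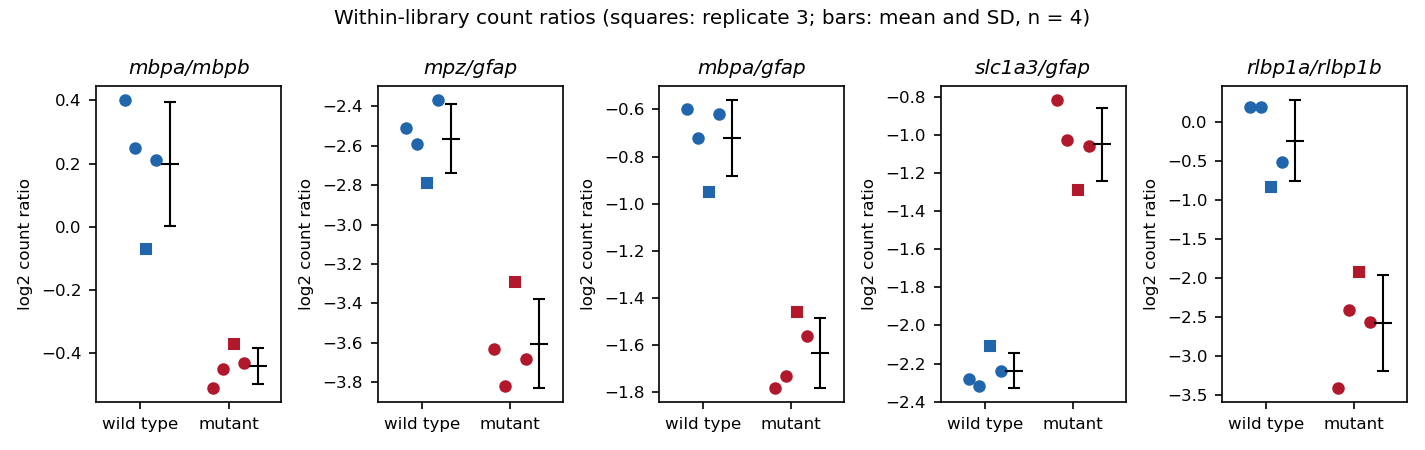
Log2 ratio of the counts of 2 genes within each wild type (blue) and mutant (red) library, with replicate 3 as a square and the mean and SD at the right (n = 4 each; vertical axes differ and do not start at 0). The groups do not overlap for any of the 5 pairs, and the *slc1a3* to *gfap* ratio is the one that is higher in the mutant.

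*rlbp1a* (ENSDARG00000012504) encodes a cellular retinaldehyde-binding protein, which carries visual cycle retinoids. Wild type replicates 1 to 4 had 23.7, 20.8, 27.2 and 18.5 CPM and mutant replicates had 4.34, 11.2, 15.8 and 8.33 CPM. The groups did not overlap, but the mutant libraries differed widely among themselves, with replicate 1 lowest and replicate 3 highest. The mean fell from 22.5 ± 3.75 to 9.92 ± 4.83 CPM (SD, n = 4 each), with a log2 fold change of -1.18 ± 0.33 (SE, edgeR quasi-likelihood Benjamini-Hochberg adjusted p = 0.0371). The call was lost on leaving out mutant replicate 2 (adjusted p = 0.075) or 4 (0.0909), or any wild type library (0.0871, 0.0771, 0.0521 and 0.0524 for replicates 1 to 4). It was kept without both replicate 3 libraries (log2 fold change -1.40, adjusted p = 0.0109).

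Photoreceptor markers were measured beside *rlbp1a* because photoreceptors share the retina with Müller glia. Of 15 such markers 14 fell (93.3%, against 8.45% of all tested genes). The summed level of those 15 genes was 2398 to 3231 CPM in wild type and 149.9 to 904 CPM in the mutant, lowest in mutant replicate 1 and highest in mutant replicate 3 as for *rlbp1a*, and none was at 0 in any library. Their part in the result for *rlbp1a* was not tested.

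The duplicate *rlbp1b* did not fall with it. Wild type replicates 1 to 4 had 20.8, 18.2, 48.6 and 26.4 CPM and mutant replicates had 46.1, 59.6, 60.3 and 49.4 CPM, so the groups overlapped through wild type replicate 3. With all libraries the log2 fold change was 0.92 ± 0.28 (SE, edgeR quasi-likelihood Benjamini-Hochberg adjusted p = 0.0542). It rose by 1.30 without wild type replicate 3 (adjusted p = 0.001) and by 1.24 without both replicate 3 libraries (0.0012). The log2 ratio of *rlbp1a* to *rlbp1b* was -0.24 ± 0.52 in wild type and -2.58 ± 0.61 in the mutant (SD, n = 4 each). This pair was added after the data were seen, and it had p = 0.0286 in the exact permutation test. The levels of *rlbp1a* and *rlbp1b* listed above meant that their ratio had to separate the groups, so the p-value is no separate evidence.

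Other genes of the oligodendrocyte lineage and of central myelin were mostly not called. Of 25 measured genes 4 fell and 0 rose, where 8.45% of all tested genes fell and 8.65% rose. The median log2 change of the 25 was -0.22. The count of lower genes was 7 without mutant replicate 3, and without both replicate 3 libraries 8 fell and 1 rose. The receptor gene *gpr17*, a marker of oligodendrocyte precursors that have committed to differentiate, fell from 2.64 ± 0.359 to 0.975 ± 0.196 CPM (SD, n = 4 each), or by 1.43 ± 0.20 on the log2 scale. *cd59a*, a gene of the family of complement inhibitors, fell by 0.70 ± 0.12 and the Wnt effector *tcf7l2*, which acts in oligodendrocyte differentiation in mice, by 0.69 ± 0.13. The oligodendrocyte myelin glycoprotein gene *omg* (ENSDARG00000089444) fell by 0.67 ± 0.16, a call that was lost when mutant replicates 1 or 2, or wild type replicates 1, 2 or 4, were left out 1 at a time (adjusted p = 0.0518 to 0.0669).

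The other 21 genes of the list were not called, and 19 of the 25 had a log2 fold change below 0. *sox10*, a transcription factor of oligodendrocytes, Schwann cells and neural crest, had a log2 fold change of -0.06 with a 95% interval of -0.37 to 0.24, and its sign turned under library-size scaling and without mutant replicate 1 (0.01 in both). The myelin claudin gene *cldnk* had a log2 fold change of -0.32 ± 0.12 and was not called (adjusted p = 0.0978). It passed without mutant replicate 3 (-0.42, adjusted p = 0.0259) and without both replicate 3 libraries (-0.41, 0.0174).

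Genes of Schwann cells and peripheral myelination were likewise lower or not called. Of 19 measured genes 5 fell (26.3%, against 8.45% of all tested genes) and 0 rose, and the median log2 change was -0.12. The log2 fold change was below 0 for 11 of the 19 and above 0 for 8. Above 0 and not called were *erbb2* (0.25), *erbb3b* (0.18) and *lama4* (0.39), among others, all named after their values were seen. The POU factor gene *pou3f1*, which drives Schwann cells towards myelination and is also used by neurons, fell from 43 ± 3.91 to 22.8 ± 2.46 CPM (SD, n = 4 each), and the related *pou3f2a* fell by 0.56 ± 0.11 on the log2 scale. A copy of *pou3f2* (ENSDARG00000076262) fell by 0.48 ± 0.12, a call lost on leaving out mutant replicate 1 (adjusted p = 0.06), wild type replicate 1 (0.0664) or wild type replicate 2 (0.0704). The largest decrease in this list was in a copy of *ndrg1* (ENSDARG00000010420), whose product is needed for peripheral myelin upkeep in mammals and is made in many other tissues, from 28.9 ± 9.29 to 4.03 ± 1.22 CPM. The fifth gene was the other *ndrg1* row (ENSDARG00000032849, log2 fold change -0.42), named after its values were seen, which lost its call in 6 of the fits without 1 library. The zinc finger gene *egr2* (ENSDARG00000042826), the switch for Schwann cell myelination in mice, had a log2 fold change of -0.79 ± 0.29 and was not called (adjusted p = 0.0935). It passed without wild type replicate 3 (-1.01, adjusted p = 0.0096), the library with its lowest wild type level. Only 3 of the list were called when mutant replicate 1, wild type replicate 1 or wild type replicate 2 was left out.

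Myelin forms on axons, and 22 genes of the contact between axon and glia and of the nodes of Ranvier were followed. Of these 5 fell (22.7%, against 8.45% of all tested genes) and 0 rose, and the median log2 change was -0.15. Leaving out 1 library gave 2 called genes for mutant replicates 2 and 4 and wild type replicates 1 and 2, and 3 for mutant replicate 1 and wild type replicate 4. The adhesion genes *cadm3* (-0.51 ± 0.10), whose product lines axons opposite the glial membrane in mice, and *cntn2* (-0.42 ± 0.09), which acts beside the node, kept their calls in every fit without 1 library. *nrcam*, *ank2b* and a copy of *ank3* (ENSDARG00000061736, named after its values were seen) lost theirs in 5, 7 and 7 of those 8 fits. Of 24 neuron markers, which include no gene of the axon contact list, 6 fell (25.0%) and 2 rose (8.33%). Of all tested genes 8.45% fell and 8.65% rose. The median of the neuron markers was -0.07, and the 2 became 0 or 1 on leaving out any single library except wild type replicate 3. The summed level of the 24 markers was 2306 to 2403 CPM in wild type and 2007 to 2274 CPM in the mutant, with none at 0 in any library. Its part in the results for myelin genes was not tested.

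**Figure D4:**
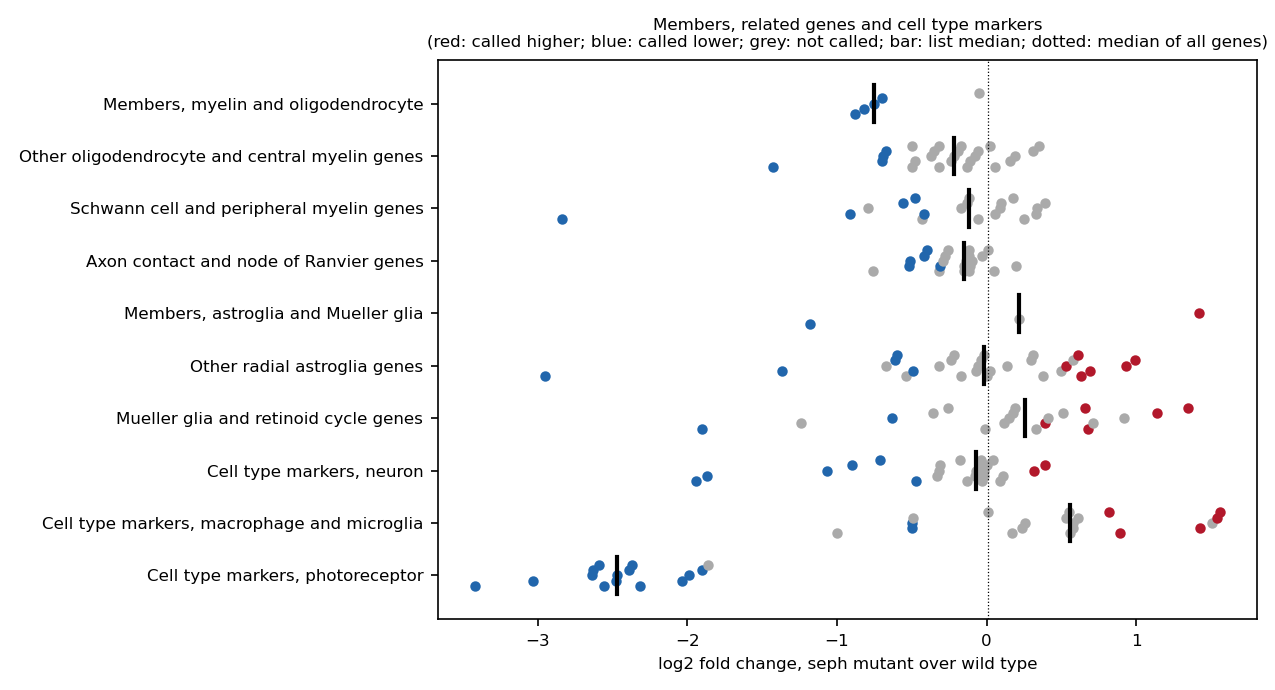
Log2 fold change of each measured gene (horizontal axis) in the 2 sets of members, the related gene lists and 3 cell type marker lists, coloured by edgeR call, with list medians (black bars) and the median of all tested genes (dotted, 0.01). Myelin members have a median of -0.75, with *mbpb* at -0.05. The related myelin lists have medians of -0.22 and -0.12, and photoreceptor markers have a median of -2.47.

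Other genes of radial astroglia changed in both directions. Of 29 measured genes 6 rose (20.7%) and 5 fell (17.2%), against 8.65% and 8.45% of all tested genes. The median log2 change of the 29 was -0.02. A second glutamate transporter symbol, *slc1a2* (ENSDARG00000052138, whose zebrafish copy the symbol does not name), fell while *slc1a3* rose. It had 32.6, 29.9, 12 and 26.8 CPM in wild type replicates 1 to 4 and 1.12, 5.76, 3.19 and 3.04 CPM in the mutant replicates, or 7.72-fold less in the mutant (log2 fold change -2.95 ± 0.47, SE, edgeR quasi-likelihood Benjamini-Hochberg adjusted p = 0.00353). Wild type replicate 3 was far below the rest of its group and still above every mutant library.

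The Notch target *her4.1*, active in neural progenitors and radial glia, fell from 24 ± 2.32 to 9.31 ± 0.51 CPM (SD, n = 4 each), and the Notch receptor gene *notch1* (ENSDARG00000052094) fell by 0.60 ± 0.11 on the log2 scale. The progenitor factors *sox2* (-0.49) and *sox3* (-0.61), named after their values were seen, were the other genes of the list that fell. Higher genes included *hepacam*, an astroglial adhesion gene (18.5 ± 1.25 to 26.8 ± 1.39 CPM), and the fatty acid binding protein copy *fabp7* ENSDARG00000034650 (2.82 ± 0.604 to 5.63 ± 0.616 CPM, SD, n = 4 each). The calcium-binding protein gene *s100b* (0.93) and a copy of *mdk* (ENSDARG00000036036, 0.61) also rose, and both were named after their values were seen, as were the remaining 2. Those were copies of *sox9* (ENSDARG00000043923, 0.69), not called when wild type replicate 1 or 2 was left out, and *vim* (ENSDARG00000044501, 0.63), lost in 6 of the fits without 1 library. The other *fabp7* copy (ENSDARG00000007697) had 296 CPM in wild type replicate 3 against 129 to 155 CPM in the rest of its group and was not called (-0.07), with the sign turned without that library (0.27). Among glutamine synthetase genes, *glulc* was barely detected, at 0.838 ± 0.263 CPM in wild type and 0.673 ± 0.242 CPM in the mutant (SD, n = 4 each), and was not called.

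Of 20 genes of Müller glia and the retinoid cycle other than *rlbp1a*, 5 rose and 2 fell. Of all tested genes 8.65% rose and 8.45% fell. The median log2 change of the 20 was 0.26. *dkk3* (ENSDARG00000070683), a secreted Wnt pathway protein found in Müller glia, rose 2.55-fold from 7.84 ± 0.458 CPM in wild type (SD, n = 4) and kept its call whichever library was left out. The interphotoreceptor retinoid-binding protein gene *rbp3*, which photoreceptors make, fell by 1.90 ± 0.45 on the log2 scale and lost its call on leaving out mutant replicate 2 (adjusted p = 0.0541) or wild type replicate 1 (0.0508). The count of 5 higher genes was 1 on leaving out replicate 1 or 2 of either group, 2 on leaving out wild type replicate 4, 3 on leaving out mutant replicate 4 and 9 without both replicate 3 libraries. The count of 2 lower genes was 0 on leaving out mutant replicate 2, and 1 on leaving out replicate 1 or 4 of either group.

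Markers of macrophages, which in a whole larva include the microglia of the brain and the macrophages of other tissues, were measured beside *slc1a3*. The median log2 change of the 20 tested markers was 0.56. Of these markers 5 rose and 2 fell, where 8.65% of all tested genes rose and 8.45% fell. The count of 2 lower markers became 1 on leaving out replicate 1 or 2 of either group or wild type replicate 4. The summed level of the markers was 707 to 1128 CPM in wild type and 1526 to 2420 CPM in the mutant, most of it from the apolipoprotein gene *apoeb* (689 ± 193 to 1854 ± 375 CPM, SD, n = 4 each). One of 21 listed rows, a copy of *mpeg1*, was at 0 in mutant replicate 3 and did not pass the filter on low counts. The part of these cells in the result for *slc1a3* was not tested.

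Among 13217 tested genes with a symbol and a mean of at least 5 CPM, the profiles over the 8 libraries nearest to that of *mpz* were those of *naalad2*, *zgc:158846* and *kera*. Nearness was the root mean square difference of log2(CPM + 1) after each gene's mean was subtracted, and it was 0.0674, 0.0778 and 0.0818. The profiles nearest to *slc1a3* were *si:ch211-136a13.1* (0.0896), the collagen chaperone gene *serpinh1* (0.112) and *ms4a17a.8* (0.114). None of these 6 was on a list used here.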

How the data were processed

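Read counts for each Ensembl gene in 8 libraries were deposited as whole numbers. The authors used STAR 2.3.0e and HTSeq 0.6.0, per the submitters' processing notes. Build, annotation, strand setting and the handling of multiply matching reads: not given in the sources used here. Values of near-identical copies are therefore uncertain. The labels tie no library to a clutch, so p-values measure the spread between these libraries only, which may be technical. A count of 0 allows up to 3 counts, or 0.0532 to 0.0585 CPM, for counting error only.

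After filterByExpr (minimum count 10) and TMM scaling, genotype was the single term in the edgeR 4.0.16 quasi-likelihood test (R 4.3.3). Adjusted p-values are Benjamini-Hochberg values over 27050 genes, from edgeR unless another tool is named. Errors and intervals derive from the F statistic of each fold change. Pair ratios used log2 counts with 0.5 added and exact permutation over 70 arrangements. Of 6 planned pairs, the 2 with *plp1a* or *glula* had no row. Alternatives were DESeq2 1.42.0, limma 3.58.1 (voom), other scalings and filters, a replicate block and leaving libraries out. The code was tested on simulated data. There edgeR called 2 of 67 genes simulated at 1.5-fold, 29 of 67 at 2-fold and 60 of 66 at 4-fold. It made 0 false calls, limma-voom made 0 and DESeq2 made 53. A gene that is not called may therefore still differ.

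The members and lists were chosen with earlier results of these data known. Of 223 entries in 10 other lists, 113 were found by symbol, 74 after dropping a final letter that marks the copy, and 3 through a synonym, while 33 had no row. Genes named are the members, *selenoh*, a set always named (*rlbp1b*, *glulb*, *glulc*, *sox10*, *cldnk*, *egr2b*, *slc1a2b*, *fabp7a*, *her4.1*), up to 4 called genes per list with the smallest p, and the nearest profiles. Others are said to be named after their values were seen. One gene that the rule names is not reported here.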

Additional observations from a re-analysis of the deposited data

Results flagged for a closer look

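In 8 of 132 groups of 4 libraries examined, 1 library lay far from the other 3 of its group, where chance flags about 1 in 20 groups, and 7 of these were replicate 3 libraries. *selenoh* was at 0.358 CPM in mutant replicate 2 against 0 to 0.0181 in the other mutant libraries. In wild type replicate 3 the precursor gene *gpr17* was at 2.1 CPM against 2.76 to 2.85, and the Schwann cell gene *egr2* at 3.19 CPM against 6.86 to 7.38. The radial glia gene *fabp7* (ENSDARG00000007697) was at 296 CPM against 129 to 155 there, and the glutamate transporter gene *slc17a7* (ENSDARG00000016480) at 22.7 CPM against 17.2 to 17.7. In mutant replicate 3 *ank2b* was at 163 CPM against 192 to 196, *kera* at 25.6 CPM against 19.8 to 20.3 and *ms4a17a.8* at 48.8 CPM against 64.3 to 66.9. None of the 8 myelin and glia genes, and none of their ratios, was among these.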

How the results depend on the processing

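The calls of *mpz*, *mbpa*, *plp1b*, *olig2* and *slc1a3* and the count of 4 lower myelin genes held under every alternative run. Over all genes 2339 rose and 2287 fell, against 5039 and 4765 with limma-voom, 3783 and 3623 with the replicate block, 4200 and 3956 without both replicate 3 libraries, and 1262 to 3667 and 1235 to 3374 on leaving out 1 library. Of the 3 astroglial and Müller glia genes, 2 rose by library size only, DESeq2, limma-voom and without both replicate 3 libraries, and 0 to 1 fell on leaving out 1 library.

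Pair differences for *mbpa*/*mbpb*, *mpz*/*gfap*, *mbpa*/*gfap* and *slc1a3*/*gfap* were -0.75, -1.22, -1.04 and 1.31 without both replicate 3 libraries (exact permutation p = 0.1, the smallest possible). With the replicate block they were -0.64, -1.04, -0.91 and 1.19 (exact sign-flip permutation p = 0.125, the smallest possible). On leaving out 1 library, *mbpa*/*mbpb* ranged from -0.73 to -0.57.

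In the oligodendrocyte list, 1 gene rose with DESeq2, limma-voom or without both replicate 3 libraries and 2 with the block, while 10 fell with limma-voom, 9 with the block and 8 without both replicate 3 libraries. Leaving out 1 library gave 0 to 1 higher and 3 to 7 lower. In the Schwann cell list, 1 rose with upper-quartile or library-size scaling, the 1 CPM filter or DESeq2, 2 with limma-voom and 3 with the block, and leaving out 1 library gave 0 to 1 higher and 3 to 6 lower. In the axon list, 3 fell by library size only, 8 with DESeq2, 9 with limma-voom, 8 with the block and 2 to 6 on leaving out 1 library. In the astroglia list 8 fell with limma-voom. In the Müller glia list 9 rose with limma-voom or without both replicate 3 libraries, 1 fell by library size only, and leaving out 1 library gave 1 to 6 higher and 0 to 3 lower.

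Signs turned for genes not called. *mbpb* was 0.03 and *sox10* 0.01 by library size only, and *sox10* ran from -0.16 to 0.01 on leaving out 1 library. *fabp7* (ENSDARG00000007697) was 0.08 with limma-voom, 0.10 without both replicate 3 libraries and -0.24 to 0.27 on leaving out 1 library. The cause was not tested.

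Whether the shared replicate numbers pair the libraries was not settled. Deviations of same-numbered libraries correlated at 0.095, 0.066, 0.46 and 0.237 for replicates 1 to 4. Mutant replicates 1, 3 and 4 were each closest to the wild type library of the same number. Mutant replicate 2 was closest to wild type replicate 1 (0.124).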

Other observations

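Genes of neuronal differentiation, measured as markers of the cells from which glia must be told apart, also differed. Both copies of the zinc finger gene *insm1*, which acts in newly formed neurons and photoreceptors, fell, ENSDARG00000091756 from 28 ± 2 to 8.24 ± 0.79 CPM and ENSDARG00000053301 from 16.8 ± 2.12 to 8.32 ± 1.73 CPM (SD, n = 4 each). The proneural gene *ascl1a* fell by 1.22 ± 0.20 on the log2 scale. These and *notch1* were the 4 that fell of 15 markers of proliferating progenitors (26.7%, against 8.45% of all tested genes), of which 0 rose. The median log2 change of the 15 was -0.56 (-0.28 without both replicate 3 libraries), and 14 had a log2 fold change below 0. The summed level of the 15 was 356 to 793 CPM in wild type and 306 to 464 CPM in the mutant, highest in replicate 3 of both groups. The replication clamp gene *pcna*, named after its values were seen, had a log2 fold change of -0.07 ± 0.31. That is above the list median, so *pcna* does not stand for the list. Among neuron markers both rows of the vesicular glutamate transporter *slc17a7* fell, by 1.07 ± 0.13 (ENSDARG00000090106) and 1.94 ± 0.28 (ENSDARG00000016480), and the intermediate filament gene *ina* (ENSDARG00000011862) by 1.87 ± 0.26. The other *ina* row (ENSDARG00000053248, -0.04) was not called. The 2 neuron markers that rose were *nefma* (0.32) and *nefmb* (0.39). These and the other *ina* row were named after their values were seen.

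Of 13 genes of retinal pigment epithelium and pigment cells 8 were not called, 4 rose (30.8%) and 1 fell (7.69%). Of all tested genes 8.65% rose and 8.45% fell. Among the 4 was the melanin enzyme gene *dct* (0.84 ± 0.18). The gene that fell was the homeobox gene *otx2* (-2.05 ± 0.13), which photoreceptors and bipolar cells also use. The 4 became 1 in 5 of the 8 fits without 1 library, those that left out replicate 1 or 2 of either group or mutant replicate 4.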
